A study of Caenorhabditis elegans with 8 samples.

Results

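Small RNAs were described at 6 genes of the nematode Caenorhabditis elegans that act in RNA interference (RNAi) by feeding: sid-1, sid-2, sid-3, sid-5, rde-10 and rde-11. They were taken by name from the 20191 genes of the count files, and all 6 were found there. The set was chosen by name but also selected on measured values, since more reads in the mutant than in wild type were already known at sid-1 and rde-11. For this reason the difference between mutant and wild type at these 6 genes is given as a description, and no p-value of it is used. The differences between foods were not used in the choice and were tested.

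The small RNAs came from whole animals of 2 strains on 2 foods, in 4 groups of 2 libraries each. The strains were N2, the wild type, and YY1683, labelled zsp-1(-) in the series title and zap-1(-) in the genotype field, with no allele named. ZSP-1, also called PID-2 and listed as pid-2 in the files, belongs to the Z granule, a compartment of the germ granule. Both strains ate HT115 bacteria at 20 °C, which carried either the empty vector L4440 or a vector for double-stranded RNA (dsRNA) of oma-1, a gene of maturing oocytes. All animals were adults on day 1 that held eggs, by the age label, and young adults by the extraction text. RNAs of about 18 to 35 nt were cloned in a way that is independent of the 5′ monophosphate, which lets in 22G siRNAs, the antisense RNAs that RNA-dependent RNA polymerases copy from a target messenger RNA. A read counted at a gene is therefore taken as a small RNA that maps to that gene and not as its messenger RNA, and sense and antisense reads were not told apart.

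In RNAi by feeding, dsRNA from the gut lumen has to reach the cytoplasm of other cells, where Dicer cuts it and polymerases copy the target into secondary siRNAs. SID-2 takes up dsRNA at the surface of intestinal cells, SID-1 is the membrane channel that lets dsRNA into the cytoplasm, SID-3 is a tyrosine kinase that helps import, and SID-5 is an endosomal protein that helps RNAi pass between cells. RDE-10 and RDE-11 form a complex that acts between the first cut of the target and the making of secondary siRNAs. These genes can themselves be siRNA targets in the germ line, which is why small RNA reads at them were counted.

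Libraries held 136908 to 340932 reads over all genes. Levels are given as CPM, reads scaled to 1000000 per library, and levels of different genes are compared as CPM per kb of exon. Reads at zsp-1 itself were 57 to 116 per wild-type library and 2 to 14 per mutant library. On oma-1 RNAi, oma-1 held 5076 and 5789 reads in wild type and 2541 and 3402 in the mutant, against 20 to 42 in the L4440 libraries. Scaled for depth, these were 18074 and 22936 CPM in wild type and 11189 and 22978 CPM in the mutant. The genotype difference at oma-1 on this food was not called (log2 -0.26, SE 0.35, adjusted p = 0.788 in edgeR's test). Of the 8 muscle and 8 intestine markers none had enough reads to be tested, with 4 muscle and 5 intestine reads in wild type and 9 and 13 in the mutant. The 8 oocyte genes took 0.0934% to 0.127% of reads in wild type and 0.0935% to 0.104% in the mutant. The 8 sperm genes took 0.0211% to 0.0722% in wild type and 0.122% to 0.194% in the mutant. Most of the mutant's reads in that list were at spe-15, with 1003 of 1288. Without spe-15, a comparison added after the data were seen, the other 7 genes had 308 wild-type reads (0.0200% to 0.0717% of a library) and 285 mutant reads (0.0285% to 0.0373%). Of these, spe-41 rose (log2 1.02, adjusted p = 0.00183 in edgeR's test) and ssp-16 fell (log2 -2.27, adjusted p = 0.00353), while msp-56 and spe-9 had 0 reads. The part of sperm in the results below was not tested.

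Nearly all of the reads lay at 2 of the 6 genes. sid-1 and rde-11 held 97.1% of the reads at the 6 genes in wild type and 99.1% in the mutant. The other 4 genes together had 33 reads in the 4 wild-type libraries and 31 in the 4 mutant libraries. Only sid-1 and rde-11 had enough reads for the model across genes, which kept 4567 genes (22.6%), and rde-10, sid-2, sid-3 and sid-5 did not. The 6 genes together took 0.124% ± 0.0309 of all wild-type reads and 0.392% ± 0.0356 of all mutant reads (SD, n = 4 each).

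**Figure D1:**
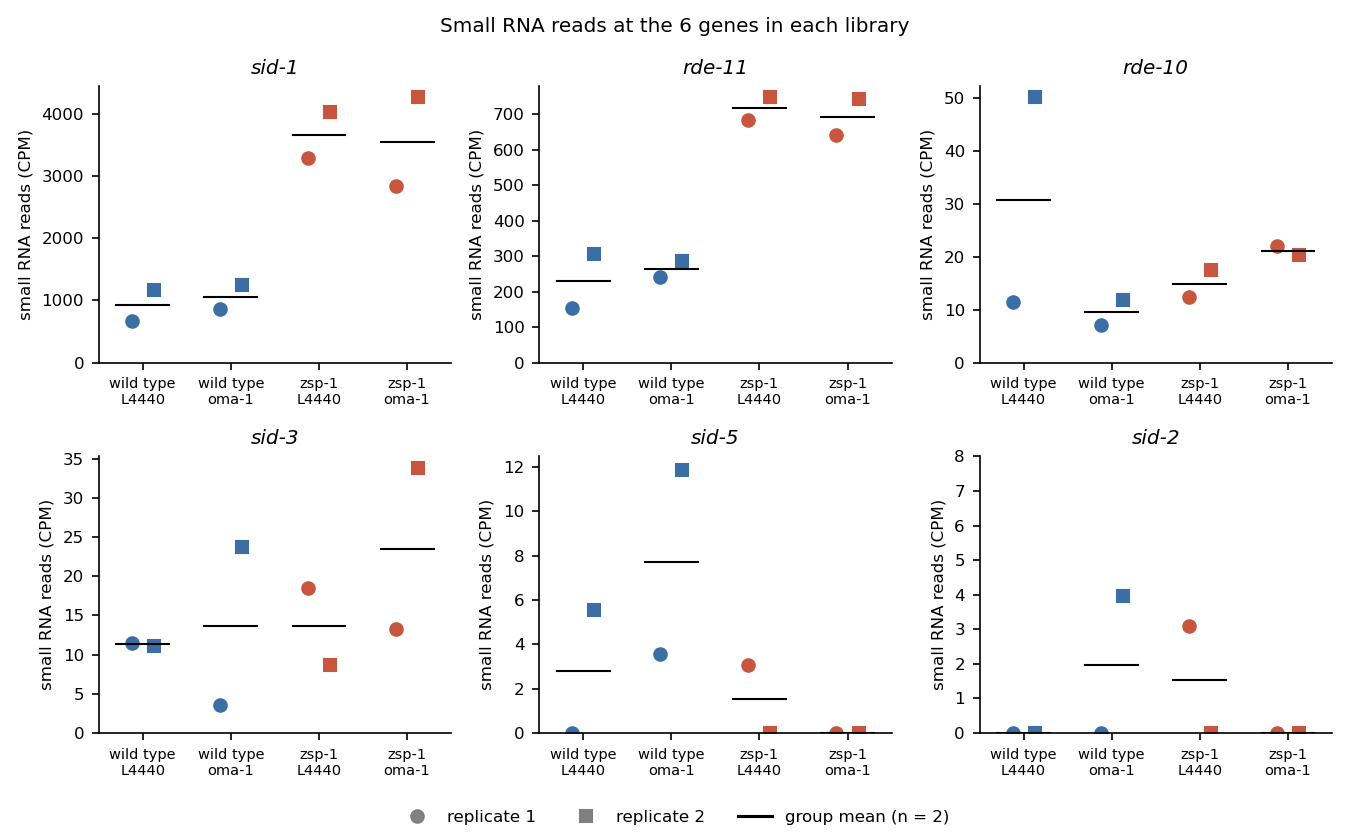
Small RNA reads in CPM at each of the 6 genes, with 1 point per library (circles for replicate 1, squares for replicate 2), bars for the mean of 2 libraries, wild type in blue and the zsp-1 mutant in red. The mutant libraries lie above all wild-type libraries at sid-1 and rde-11, while the genotypes overlap at the other 4 genes, whose axes end far lower.

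sid-1 was already a target in wild type and had several times more small RNAs in the mutant. Its gene lies on chromosome V, from 5119939 to 5126916 on the plus strand of WBcel235, with 7 blocks of exon that add up to 2684 bases, and it overlaps no other gene of the files. On L4440 the 2 wild-type libraries had 118 and 210 reads, or 676 and 1170.5 CPM, and the 2 mutant libraries 1067 and 462 reads, or 3299 and 4029 CPM. On oma-1 RNAi the wild-type libraries had 244 and 316 reads, or 869 and 1252 CPM, and the mutant libraries 646 and 633 reads, or 2845 and 4275 CPM. The lowest mutant library was thus above the highest wild-type library on either food. In RNA from whole animals, a change in the number of cells that hold these small RNAs and a change in their amount per cell cannot be told apart. Wild type averaged 992 ± 267 CPM and the mutant 3612 ± 659 CPM (SD, n = 4 each), a ratio of 3.64. The log2 fold change was 1.98 (SE 0.35) on L4440 and 1.75 (SE 0.34) on oma-1 RNAi.

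rde-11 showed the same order of genotypes at a lower level. The gene lies on chromosome IV, from 13105323 to 13106927 on the plus strand, with 7 blocks of exon of 1287 bases in all and no overlap with another gene of the files. On L4440 wild type had 27 and 55 reads, or 155 and 307 CPM, and the mutant 221 and 86 reads, or 683 and 750.1 CPM. On oma-1 RNAi wild type had 68 and 72 reads, or 242 and 285 CPM, and the mutant 146 and 110 reads, or 643 and 743 CPM. Here too no mutant library overlapped a wild-type library. Every mutant library lay above every wild-type library at 12.3% of the 4567 genes tested, and at another 12.3% every one lay below. Wild type averaged 247 ± 67.2 CPM and the mutant 705 ± 51.0 CPM (SD, n = 4 each), a ratio of 2.85, and the log2 fold change was 1.63 (SE 0.34) on L4440 and 1.39 (SE 0.33) on oma-1 RNAi.

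Averaged over both foods, the log2 fold change was 1.87 (SE 0.25, 95% interval 1.36 to 2.37) at sid-1 and 1.51 (SE 0.24, 1.02 to 2.0) at rde-11. Both were among the 516 genes called rising in edgeR's quasi-likelihood test with Benjamini-Hochberg adjustment, which is 11.3% of the 4567 genes tested. They were chosen with these calls known, so nothing is read from the calls. Neither change was large among those 516 genes, whose median log2 fold change was 1.66. A larger log2 fold change was found at 220 of them than at sid-1, and at 299 than at rde-11. Per kb of exon, however, sid-1 gained 976 CPM, the 25th largest gain of all 20191 genes, and rde-11 gained 356 CPM, the 113th largest. In level per kb sid-1 moved from rank 322 in wild type to rank 97 in the mutant, and rde-11 from rank 655 to rank 248.

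**Figure D2:**
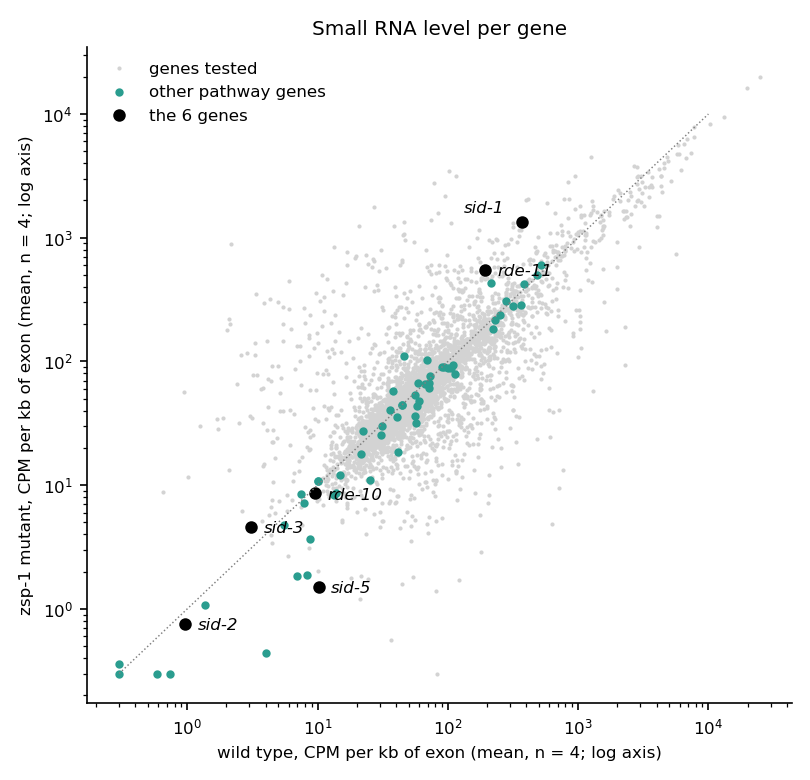
Mean small RNA level in CPM per kb of exon in the mutant against wild type (n = 4 libraries each, log axes, values under 0.3 drawn at 0.3), for all genes tested (grey), the other pathway genes listed (green) and the 6 genes (black). sid-1 and rde-11 lie above the dotted line of equal levels at 369.6 and 192 CPM per kb in wild type, and the other 4 genes lie at the low end.

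sid-1 had the higher level of the 2 targets in every library. Per kb of exon, sid-1 held 2.1, 1.83, 1.72 and 2.1 times the level of rde-11 in the wild-type libraries, in the order L4440 replicates 1 and 2 and oma-1 RNAi replicates 1 and 2. The mutant libraries had ratios of 2.32, 2.58, 2.12 and 2.76 in the same order. The range was 1.72 to 2.1 in wild type and 2.12 to 2.76 in the mutant, so the genotypes did not overlap by a small margin. The counting error of these ratios was not computed, so nothing is read from that margin. Both genes were lower in replicate 1 than in replicate 2 in all 4 groups.

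rde-10, the partner of rde-11, had few small RNAs in either strain. It lies on chromosome I, from 3547071 to 3552005, has 2097 bases of exon, and 57 of its bases overlap Y47G6A.21 on the opposite strand. On L4440 wild type had 2 and 9 reads and the mutant 4 and 2. On oma-1 RNAi wild type had 2 and 3 reads and the mutant 5 and 3. The genotypes overlapped, at 16 wild-type against 14 mutant reads, a ratio of pooled CPM of 0.955 with an exact 95% interval of 0.431 to 2.09. Without wild-type replicate 2 on L4440, which held 9 of the 16 reads, the ratio was 1.74. These intervals cover counting error only. They leave out the spread between the pooled libraries of a genotype, and reads amplified by PCR are not independent molecules.

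The kinase gene sid-3 had reads in every library, but never more than 6. It lies on the X chromosome, from 17186380 to 17193289, and its 4038 bases of exon are the longest of the 6. On L4440 wild type had 2 and 2 reads and the mutant 6 and 1, and on oma-1 RNAi wild type had 1 and 6 reads and the mutant 3 and 5. The genotypes overlapped, at 11 wild-type against 15 mutant reads, a ratio of 1.49 (exact 95% interval 0.638 to 3.58). The ratio was 2.34 when replicate 2 of wild type on oma-1 RNAi was left out, and between 1.12 and 1.65 without any 1 of the other libraries.

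sid-5 and sid-2 were almost free of reads. sid-5, also X-linked (6904721 to 6905849, 516 bases of exon), had 0, 1, 1 and 3 reads in the wild-type libraries. It had 1, 0, 0 and 0 reads in the mutant libraries, in the same order of groups as above. Its ratio of 0.218 had an exact 95% interval of 0.00461 to 1.95, so no difference could be seen at this depth. The ratio was 0.390 when replicate 2 of wild type on oma-1 RNAi was left out, and 0 when replicate 1 of the mutant on L4440, which held the only mutant read, was left out. sid-2 lies on chromosome III (13679445 to 13682450), within the span of dyf-2 on the opposite strand, and has 1028 bases of exon. It had 1 read in wild-type replicate 2 on oma-1 RNAi, 1 read in mutant replicate 1 on L4440 and 0 in the other 6 libraries. At 3 reads, the limit that a count of 0 allows over 4 libraries is 3.38 CPM in wild type and 3.69 CPM in the mutant. Both sums of sid-2 were below that limit and no ratio is given. The 8 intestine markers, which like sid-2 belong to genes used in the gut, had 5 wild-type and 13 mutant reads in all.

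Ordered by level per kb of exon, wild type had sid-1 first at 369.6 ± 99.6 CPM per kb and rde-11 next at 192 ± 52.2. They were followed by sid-5 at 10.2 ± 9.66, rde-10 at 9.61 ± 9.59, sid-3 at 3.09 ± 2.07 and sid-2 at 0.964 ± 1.93 (SD, n = 4 each). The libraries of sid-1, of rde-11 and of the other 4 genes did not overlap in level per kb. Among the other 4 genes, sid-5 and rde-10, and rde-10 and sid-3, differed by less than the larger of their SDs, whereas sid-3 and sid-2 differed by slightly more, with overlapping libraries. In the mutant the order was sid-1 at 1346 ± 245, rde-11 at 548 ± 39.6, rde-10 at 8.59 ± 2.01, sid-3 at 4.60 ± 2.70, sid-5 at 1.5 ± 3.0 and sid-2 at 0.752 ± 1.5 CPM per kb (SD, n = 4 each).

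The next comparison asked whether the small RNAs at sid-1 and rde-11 changed when the animals ate dsRNA. No change was detected at either gene. In wild type the log2 response to oma-1 RNAi was 0.20 (SE 0.34, 95% interval -0.51 to 0.90) at sid-1 and 0.19 (SE 0.35, -0.53 to 0.91) at rde-11. In the mutant it was -0.04 (SE 0.33, -0.73 to 0.64) at sid-1 and -0.05 (SE 0.32, -0.70 to 0.61) at rde-11. The adjusted p was 0.999 for both genes in wild type and 1 in the mutant by edgeR's quasi-likelihood test. These intervals leave room for changes of up to about 0.9 on the log2 scale. The wild-type response was -0.18 at sid-1 and -0.26 at rde-11 without replicate 1 on L4440, and 0.71 and 0.82 without replicate 2 on L4440.

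In the same test 2 of 4567 genes (0.0438%) were called in each strain, and they were oma-1 and moe-3, a relative of oma-1 that also encodes zinc fingers. The response at oma-1 was 6.82 on the log2 scale in wild type and 6.85 in the mutant. The difference of the responses at oma-1 was 0.03 (adjusted p = 1 in edgeR's test), and reads from the dsRNA in the food could not be separated from siRNAs. Whether the genotype difference depended on the food was tested as the difference of the responses. It was -0.24 (SE 0.48, 95% interval -1.22 to 0.74) at sid-1 and -0.24 (SE 0.47, -1.21 to 0.74) at rde-11, with an adjusted p of 1 at each in edgeR's test. No gene passed this test with edgeR or with DESeq2, and 113 of 4567 genes had an unadjusted p under 0.05 with edgeR.

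**Figure D3:**
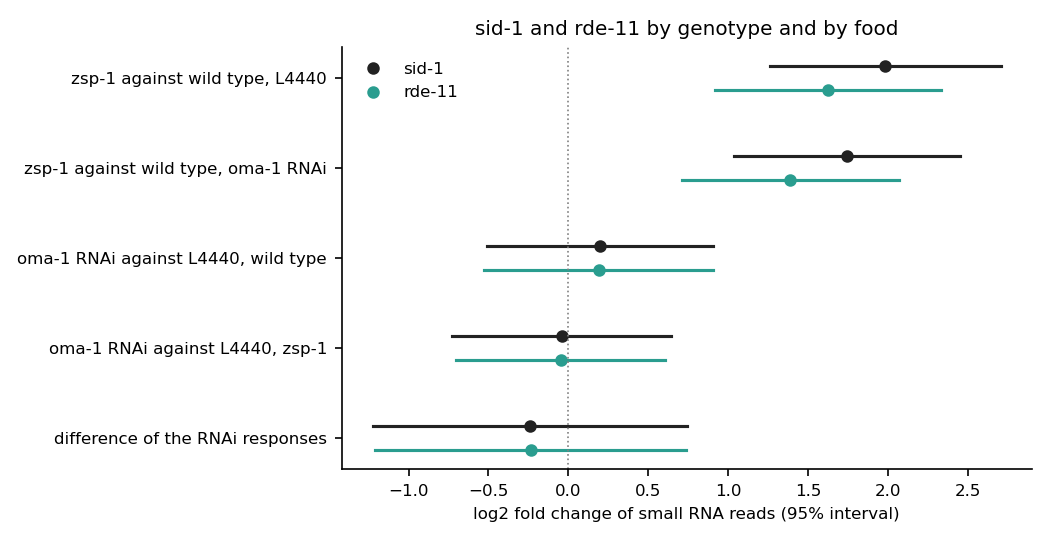
Log2 fold changes of small RNA reads at sid-1 (black) and rde-11 (green) with 95% intervals, for the genotype on each food, for the responses of the strains to oma-1 RNAi and for the difference of the responses. The genotype values lie between 1.39 and 1.98, whereas the intervals of all responses include 0.

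The genes beside sid-1 had few reads in either strain. C04F5.9 ends 730 bases before sid-1 on the opposite strand and had 87 wild-type and 69 mutant reads, a log2 fold change of -0.23 (SE 0.27, adjusted p = 0.676 in edgeR's test), which was not called. F14F9.5 starts 139 bases after sid-1 on the same strand and had 0 wild-type and 1 mutant reads, and F14F9.8, the next gene, had 0 reads in all libraries. C04F5.8, 6185 bases before sid-1, had 16 and 22 reads and was not tested. At 16.9 CPM in wild type and 28.3 CPM in the mutant it was higher in every mutant library, but by 11.4 CPM, against 2620.2 CPM at sid-1. Reads between genes were not counted.

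Beside rde-11 the nearest tested gene moved the other way. B0564.7, which ends 682 bases before rde-11 on the same strand, had 28 and 40 reads on L4440 and 80 and 44 on oma-1 RNAi in wild type. In the mutant it had 35 and 13 reads on L4440 and 24 and 17 on oma-1 RNAi. In CPM these were lower in every mutant library, with means of 210.6 CPM in wild type and 110.5 CPM in the mutant and a log2 fold change of -0.93 (SE 0.25, adjusted p = 0.00679 in edgeR's test). Across all genes 11.8% were called falling. The call was lost with DESeq2 (adjusted p = 0.0685), without wild-type replicate 2 on L4440 (0.0508) and when replicate 1 of wild type on oma-1 RNAi was left out (0.0546). On the other side B0564.2, 732 bases away, had 46 wild-type and 29 mutant reads and was not called (log2 -0.61, SE 0.41, adjusted p = 0.353). best-1, a bestrophin gene that lies within the span of B0564.2, had 0 reads. The exosome subunit gene exos-4.1 had 32 wild-type and 23 mutant reads and was not tested.

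**Figure D4:**
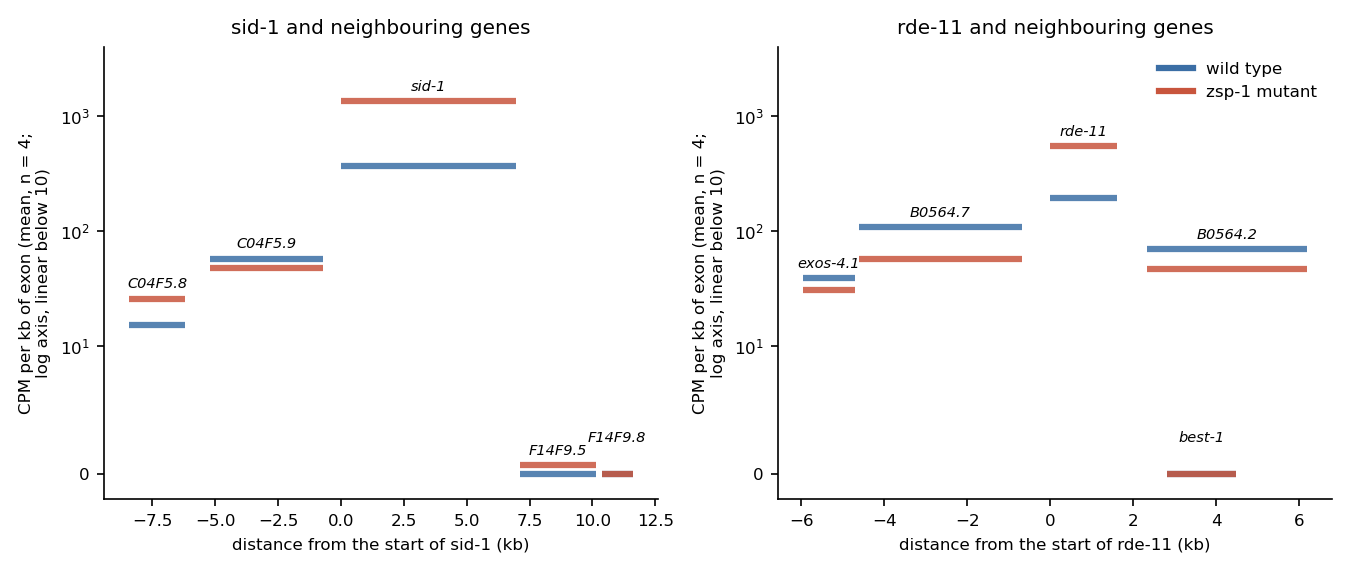
Mean small RNA level in CPM per kb of exon (n = 4 libraries per genotype, log axis that is linear below 10) of sid-1, rde-11 and the 2 nearest genes on each side, drawn over the span of each gene as distance from the start of sid-1 or rde-11 in kb. Wild type is blue and the zsp-1 mutant red, and the widest gap with red on top is at sid-1 and rde-11, while B0564.7 is lower and C04F5.8 slightly higher in the mutant.

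Few other genes of the small RNA pathway were called. The lists were chosen with the results at rde-4, nrde-1 and rrf-1 known, so the p-values of these genes are given as a description. Of 59 names listed, 57 were matched to the files and 40 had enough reads. Averaged over both foods, 2 of these 40 rose in the mutant (5.0%, against 11.3% of all genes), 1 fell (2.5%, against 11.8%) and 37 were not called. The median log2 fold change of the 40 genes was -0.09, and that of all genes tested was -0.08. None of the 40 was called in either response to RNAi or in their difference. The 17 genes below the filter had 0 to 42 reads each over all libraries.

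rde-4, whose protein binds dsRNA together with Dicer, rose in the list of Dicer and primary siRNA factors, where the other 7 of 8 tested genes were not called. It had 28, 59, 76 and 68 reads in the wild-type libraries and 174, 66, 108 and 71 in the mutant libraries, in the order of groups used above. Wild type averaged 257 ± 70.3 CPM and the mutant 517 ± 48.3 CPM (SD, n = 4 each), and no libraries of the 2 genotypes overlapped (log2 1.0, SE 0.24, adjusted p = 0.00192 in edgeR's test). Every mutant library lay above every wild-type library at 12.3% of all genes tested. dcr-1, which encodes Dicer, and rde-1, the Argonaute of primary siRNAs, had log2 fold changes of -0.17 each and were not called.

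nrde-1, a nuclear RNAi factor, rose in the list of nuclear RNAi and inheritance factors, where the other 7 of 8 tested genes were not called. Wild type had 18, 18, 29 and 43 reads and the mutant 95, 34, 57 and 45. Wild type averaged 119 ± 34.1 CPM and the mutant 286 ± 23.9 CPM (SD, n = 4 each), again without overlap (log2 1.27, SE 0.24, adjusted p = 0.000203 in edgeR's test). The gene overlaps C14B1.8 on the opposite strand, so its reads are uncertain between these genes.

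rrf-1, an RNA-dependent RNA polymerase that makes secondary siRNAs, fell, while the other 4 of 5 tested genes of the polymerase complexes were not called. It had 43, 51, 86 and 80 reads in wild type and 64, 20, 34 and 17 in the mutant. Wild type averaged 288 ± 31.1 CPM and the mutant 159 ± 35.5 CPM (SD, n = 4 each), with no overlap (log2 -0.85, SE 0.23, adjusted p = 0.00630 in edgeR's test). Every mutant library lay below every wild-type library at 12.3% of all genes tested. ego-1, the polymerase of the germ line, had a log2 fold change of -0.01 (SE 0.23).

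The remaining lists had no call in the average over both foods. Among the relatives of dsRNA transport 2 of 5 genes were tested. rsd-2, named for its part in the spreading of RNAi, had 52 wild-type and 28 mutant reads (log2 -0.77, SE 0.39, adjusted p = 0.188), and rsd-6 had 82 and 90 (log2 0.21, SE 0.27). chup-1, the sid-1 relative that acts in cholesterol uptake, had 2 and 0 reads. Among 6 tested factors of the mutator focus, where secondary siRNAs are amplified, the lowest p was at mut-16, the scaffold of the focus (log2 -0.65, SE 0.25, adjusted p = 0.0702). It passed with library totals (0.0331) and without wild-type replicate 2 on L4440 (0.0359), and it overlaps scpl-1 on the opposite strand. Among 7 tested Argonautes it was at wago-1 (log2 0.56, SE 0.24, adjusted p = 0.105), which passed without wild-type replicate 1 on L4440 (0.0437). Among 4 tested genes of the enhanced RNAi group it was at eri-7 (log2 -0.95, SE 0.46, adjusted p = 0.159). By food, the mutator factor rde-2 was called rising on L4440 (log2 1.46, adjusted p = 0.0278), as were 399 of 4567 genes in all. On oma-1 RNAi rde-2 was not called (log2 -0.21, adjusted p = 0.888). The difference of its responses was -1.67 and was not called. All adjusted p here are from edgeR's quasi-likelihood test.

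**Figure D5:**
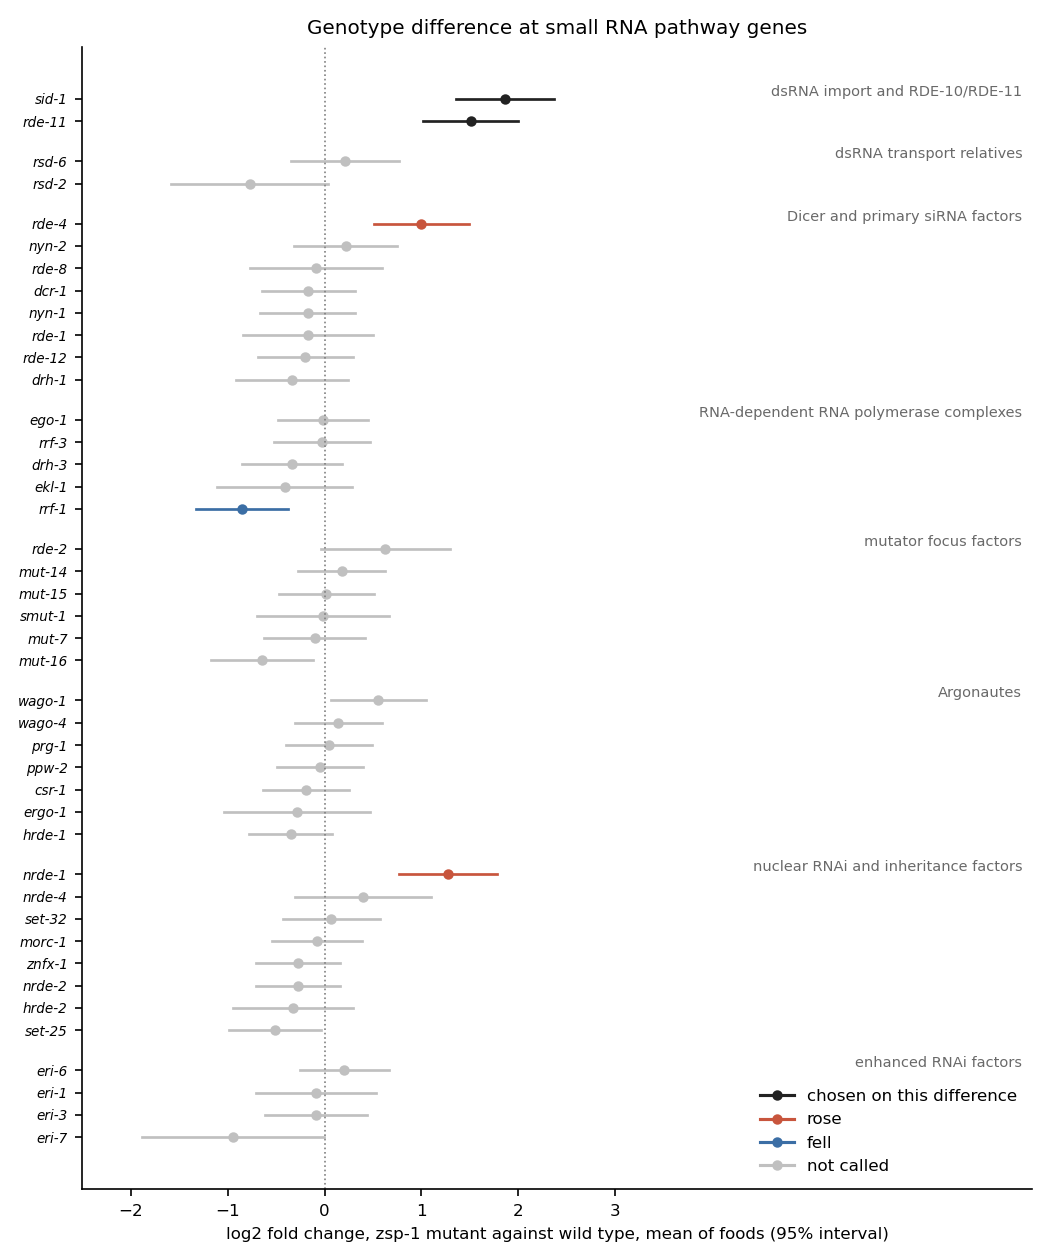
Log2 fold change of small RNA reads in the zsp-1 mutant against wild type, mean of both foods, with 95% intervals, for sid-1 and rde-11 (black, chosen with this difference known) and the 40 tested pathway genes by list. rde-4 and nrde-1 rose (red), rrf-1 fell (blue) and 37 genes were not called (grey).

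Set among the 63 genes made up of the 6 genes and the 57 pathway genes in the files, sid-1 ranked 4 in wild type by level per kb and 1 in the mutant. rde-11 ranked 12 in wild type and 3 in the mutant. The genes above sid-1 in wild type were eri-6, prg-1 and wago-4, at 523, 484 and 386 CPM per kb. In the mutant those 3 genes stood at 603, 496 and 425 CPM per kb, below the 1346 of sid-1. prg-1, the Argonaute of piRNAs, had a log2 fold change of 0.04 (SE 0.21) and wago-4, an Argonaute of inherited RNAi, of 0.14 (SE 0.22), and neither was called. eri-6 overlaps a gene on each strand, so its reads are uncertain.

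The pattern of sid-1 over the 8 libraries was shared by many genes. Among 3867 other genes with a mean of at least 50 CPM, Pearson's r of log2 CPM with sid-1 was highest at set-23, gly-14, Y65B4BL.7, lst-5 and klf-1, from 0.996 to 0.994. For rde-11 it was highest at Y65B4BL.7, stn-1, kat-1, W03C9.6 and ZK1010.4, from 0.998 to 0.991. Y65B4BL.7 overlaps deps-1 on the opposite strand, so its reads are uncertain between these genes. The values of r describe 8 libraries that fall into 2 genotypes, so a high r mostly says that a gene differed between the genotypes too. rde-11 was the 20th gene in the order for sid-1, and sid-1 the 8th in the order for rde-11, with r = 0.989.

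The genes most like sid-1 differed from it in the size of the difference. set-23, a gene with a SET domain of histone methyltransferases, went from 176 CPM in wild type to 459.7 CPM in the mutant (log2 1.37, SE 0.23). klf-1, a Krüppel-like transcription factor, went from 368 to 1183 CPM (log2 1.67, SE 0.24). The glycosyltransferase gene gly-14 went from 22.9 to 593 CPM (log2 4.65, SE 0.39) and lst-5 from 6.65 to 290.7 CPM (log2 5.30, SE 0.45). stn-1, a syntrophin gene that overlaps F30A10.9 on the opposite strand, went from 72.0 to 2069 CPM (log2 4.85, SE 0.34), so the genes most like sid-1 and rde-11 in pattern included some with almost no small RNAs in wild type.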

How the data were processed

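Small RNAs were counted per gene in 8 libraries. The authors' deposited files hold raw read counts, whole numbers that were not normalised, with the exon length of each gene, per the file headers. The submitters' processing notes list the build WBcel235 and, without their order, featureCounts 1.6.0, TopHat2 2.1.1 and cutadapt 1.14. How strand, read filters and reads with several positions were handled is not given in the sources used here. The coordinates printed are those of the files.

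The tests were run with edgeR 4.0.16 under R 4.3.3. filterByExpr with a minimum count of 10 kept 4567 genes, TMM scaled the libraries, and the quasi-likelihood fit gave each of 4 groups its mean and used all 8 libraries, with 4 residual degrees of freedom. CPM divide reads by the TMM-scaled reads of the tested genes. P-values were adjusted by Benjamini-Hochberg over all tested genes and called under 0.05. SE were computed from the log2 fold change and the F statistic, and intervals are at 95%. For the 4 genes with few reads, reads were pooled over 4 libraries per genotype, with exact binomial intervals. Names of the pathway lists were matched to the files, for znfx-1 through RefSeq's gene table. The names ZK721.1 and wago-2 were not matched, and whether these genes are in the files under other names was not settled. Whether the replicates of a group are separate cultures is not in the labels. The p-values therefore reflect the spread between these samples alone, and that spread may be technical.

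The 6 genes, the lists and the tests were chosen with earlier results of these data known, among them those at rde-4, nrde-1 and rrf-1. Named were the 6 genes, zsp-1 and oma-1, every called gene of a pathway list or else its gene with the lowest p, the 2 nearest genes on each side of sid-1 and rde-11, and the 5 genes most correlated with each. moe-3 and other pathway and marker genes named were picked after their values were seen. On simulated counts for the genotype comparison over 4567 genes, 94% of 100 genes changed 4-fold and 43% of 100 changed 2-fold were called. Alternatives were DESeq2 1.42.0, library totals, other filters, leaving out each library and the replicate number as a block.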

Additional observations from a re-analysis of the deposited data

How the results depend on the processing

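The difference at sid-1 stayed between 1.69 and 2.14 on the log2 scale without single libraries and between 1.73 and 1.90 in the other fits, and that at rde-11 between 1.31 and 1.85 and between 1.38 and 1.55. Library totals moved the median of all genes from -0.08 to -0.19, and it was -0.20 over the 12819 genes fitted without a filter. Without single libraries 465 to 571 genes rose and 411 to 526 fell. With DESeq2 435 rose and 357 fell, with library totals 477 and 675, without a filter 555 and 692, with the 10 CPM filter 557 and 640, and with the replicate block 648 and 713. Genes called in the wild-type response numbered 26 without a filter, 24 with the replicate block and 2 to 38 without single libraries, the 38 without wild-type replicate 2 on L4440. In the mutant response they numbered 12 with the block and 2 to 3 without single libraries. The difference of responses had 1 call without a filter, 2 with the block and 0 to 6 without single libraries, the 6 again without wild-type replicate 2 on L4440. sid-1 and rde-11 were called in none of these response fits. Of the pathway genes 4 fell with library totals and 4 with the block, in both cases rrf-1, mut-16, hrde-1 and set-25, and 1 to 2 fell and 2 to 3 rose without single libraries. With the block mut-16 passed at an adjusted p of 0.0102 in edgeR's test, and wago-1 also rose (0.0190). Averaged over foods, rde-4, nrde-1 and rrf-1 kept their calls in every fit. By food, rde-4 was called on L4440 (adjusted p = 0.0154 in edgeR's test) but not on oma-1 RNAi (0.107). rrf-1 was called on oma-1 RNAi (0.00961) but not on L4440 (0.411). nrde-1 was called on L4440 (0.00270) and on oma-1 RNAi (0.0364). The differences of responses, -0.36 at rde-4, -0.72 at rrf-1 and -0.52 at nrde-1, were not called, so no dependence on food was detected at these genes. The cause of the moves between fits was not tested. The labels do not say what a replicate number stands for. Deviations of replicate 1 from the group mean correlated across genes between all groups (Pearson's r 0.171 to 0.347), a hint from the data and not the design. Library totals of 136908 to 340932 reads limit what can be said of genes with few reads.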

Other observations

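Most of the 17 pathway genes that had too few reads to be tested had a lower pooled CPM in the mutant. This was not set against other genes with few reads. The median log2 fold change of all genes was -0.08 with the filter and -0.20 over 12819 genes without it. The exact interval of the ratio lay wholly below 1 at 3 Argonaute genes and the SNARE gene sec-22. How often such an interval occurs among all genes with few reads was not computed. The genes named here were picked, and the values without single libraries added, after the data were seen. alg-3 and alg-4 encode Argonautes that act in sperm formation. alg-4 had 3, 3, 4 and 2 wild-type reads and 2, 0, 0 and 0 mutant reads, in the order L4440 replicates 1 and 2 and oma-1 RNAi replicates 1 and 2. Its ratio of pooled CPM was 0.182 (exact 95% interval 0.0198 to 0.817, counting error only), and 0 without mutant replicate 1 on L4440, which held both mutant reads. alg-3 had 13, 0, 5 and 4 wild-type reads and 3, 1, 0 and 1 mutant reads, with overlapping genotypes. Its ratio was 0.248 (0.0733 to 0.671), but 0.487 when replicate 1 of wild type on L4440 was left out and 0.165 when that of the mutant was. nrde-3, the Argonaute that carries siRNAs into nuclei of somatic cells, had 3, 5, 3 and 10 wild-type reads and 1, 0, 2 and 2 mutant reads. The genotypes overlapped in CPM, and the ratio was 0.260 (0.0765 to 0.708). sec-22, whose protein binds SID-5 and limits RNAi, had 7, 7, 10 and 4 wild-type reads and 1, 0, 5 and 5 mutant reads. Its pooled ratio of 0.429 (0.193 to 0.888) came from L4440, where the means were 39.6 CPM in wild type and 1.55 CPM in the mutant. On oma-1 RNAi they were 25.7 and 27.9 CPM, and the genotypes overlapped. Without mutant replicate 1 on L4440 the ratio was 0.647. Whether sec-22 differed between foods was not tested.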
